A study of Mus musculus with 2 samples.

Results

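The Zfp352 locus was taken as the 70 kb of mouse chromosome 4 at chr4:89850001-89920000 of the build mm9, and all stretches of it with a read depth above 0 in either of 2 coverage tracks were described, beside 200 kb on each side. There were 23 such covered blocks in the locus, 5 in the flank before it and 16 in the flank after it, of 801091 in the whole genome. Both libraries were made from messenger RNA of mouse embryonic stem (ES) cells of a mixed strain background that carry floxed alleles of Kdm1a (Kdm1a FL/FL), the gene of the histone demethylase LSD1, together with CreERT, and that were grown on gelatin in KOSR medium with hygromycin. Flow cytometry separated cells that expressed the 2C::tomato reporter (the positive library) from cells that did not (the negative library), and the labels name no induction of Cre in either. There was 1 library per population, so no difference below has a replicate check, no test was made, and the intervals given are 95% counting intervals.

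Zfp352 encodes a protein of the C2H2 zinc finger class, in which a cysteine pair and a histidine pair hold a zinc ion. It is known as a gene of the early mouse embryo, with transcripts that appear around the 2-cell stage. A small fraction of cultured ES cells passes through a state with transcripts of that stage, and the 2C::tomato reporter was built to mark it with a promoter taken from the MuERV-L family of endogenous retroviruses.

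Markers of ES cells and of other cell types were not analysed here, since gene positions in mm9 were not at hand, so the labelled cell type was not checked against them. In the annotation of the later build GRCm38 (GENCODE release M21) Zfp352 lies on the plus strand of chromosome 4, at 90218820 to 90225702, and its longer transcript has 2 exons. The first has 156 bases and the other 2120, with an intron of 4607 bases between them. The whole coding sequence of 1653 bases lies in exon 2, after 42 noncoding bases and before 422 further noncoding bases that follow the stop codon. These positions belong to GRCm38 and were not carried over to mm9, so only lengths are compared below.

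The 250 bases before the start of Zfp352 are shown because they hold the proximal promoter of the gene (RefSeq, GRCm38.p6, chr4:90218570-90218819, plus strand). Capitals mark TAATCC, the core that homeodomain proteins of the OTX2 kind are known to bind.

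Zfp352 upstream: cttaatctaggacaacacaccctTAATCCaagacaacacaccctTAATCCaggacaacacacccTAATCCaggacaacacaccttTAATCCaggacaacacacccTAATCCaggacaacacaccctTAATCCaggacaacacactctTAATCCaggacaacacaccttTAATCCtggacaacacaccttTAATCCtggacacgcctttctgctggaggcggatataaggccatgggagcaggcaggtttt

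The stretch is a tandem repeat in which TAATCC recurs 9 times, all on the plus strand, with starts 21 bases apart in 6 steps and 20 in the other 2. Searched on both strands, TAATCC was present in 6.25% of 32851 such upstream stretches in the RefSeq table, and Zfp352 was the only 1 of them that held it as many as 9 times. A match of TATAA, the core of the TATA box, begins 28 bases before the gene start, and 22.8% of the upstream stretches hold a match to those letters on either strand. The motifs were picked after the sequence was seen, and a match to letters is a description and not a binding site.

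The coding sequence holds 3 stretches whose codons follow the C2H2 pattern, and they are shown because they encode the part that gives the protein its class. They come from the GENCODE M21 transcript, plus strand of GRCm38 chromosome 4, and capitals mark the cysteine codons and the histidine codons.

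Finger 1, chr4:90225005-90225073: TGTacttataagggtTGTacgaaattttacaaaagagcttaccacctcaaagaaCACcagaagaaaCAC
Finger 2, chr4:90225095-90225163: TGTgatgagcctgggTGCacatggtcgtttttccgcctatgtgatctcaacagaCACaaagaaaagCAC
Finger 3, chr4:90225185-90225250: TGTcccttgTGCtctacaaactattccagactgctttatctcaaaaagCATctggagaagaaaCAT

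They begin at codons 461, 491 and 521 of 551, near the end of the reading frame. Fingers 1 and 2 have 4 codons between the cysteines and 3 between the histidines, and finger 3 has 2 and 4. All 3 have 12 codons from the second cysteine to the first histidine.

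Over the whole 70 kb, 101 alignments of the positive library stood against 43 of the negative library. Scaled to the library totals of 37059813 and 33833215 alignments, these were 27.3 and 12.7 per 10000000 alignments, a ratio of 2.14 (1.49 to 3.14). The excess did not lie evenly over the locus. It came from a stretch of 1721 bases, at 89890277 to 89891997, in which 61 alignments of the positive library stood against 1 of the negative library. This stretch is called the exon stretch here as a name only, without an mm9 annotation. It is shorter than exon 2 of Zfp352 (2120 bases), and whether the block described next lies in the same exon was not tested. The exon stretch had a ratio of 55.7 with a wide interval (9.63 to 2235), since a single negative alignment sets the denominator. Just after it, a block of 212 bases at 89892111 to 89892322 held 27 and 29 alignments, a ratio of 0.850 (0.484 to 1.49).

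Thus the 2 most covered places of the locus, 113 bases apart, differed in how the libraries compared. The exon stretch held 60.4% of the positive alignments of the locus (exact binomial interval 50.17 to 69.99) and 2.33% of the negative ones (0.0589 to 12.3). The block after it held 26.7% (18.4 to 36.5) and 67.4% (51.5 to 80.9). The intervals of these shares do not overlap between the libraries for either place. The shares are parts of the same locus total, so the places are not independent of each other. The lower share of the block in the positive library reflects the 61 alignments that the exon stretch adds to that total. Scaled to the library totals, the block itself had a ratio of 0.85 (0.484 to 1.49). The exon stretch was picked as the most covered joined stretch, so its shares are a description. In bulk samples, fewer cells with the transcript and less transcript per cell cannot be told apart.

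**Figure D1:**
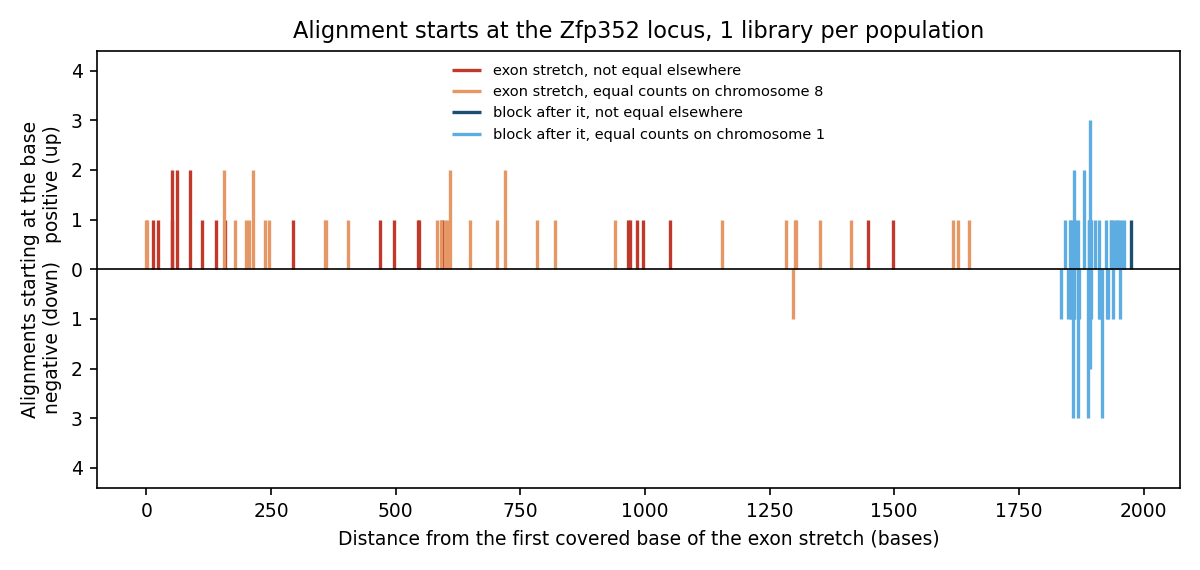
Number of alignments starting at each base (vertical axis, positive library upward, negative library downward) against the distance in bases from the first covered base of the exon stretch. The 61 positive alignments of the exon stretch are spread over it with 1 negative alignment below the line, while the block after it has 27 above and 29 below; colours mark starts whose counts are equal at a place on chromosome 8 or chromosome 1.

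The exon stretch consisted of 5 covered blocks with gaps under 72 bases, the length of an alignment. The first and longest, at 89890277 to 89891167, had 44 positive alignments and 0 negative ones. With 3 counts in place of 0 over the block the ratio was 13.4, and the counting interval began at 10.4. The next blocks held 6 and 0 alignments at 89891216, 1 and 0 at 89891431, 7 and 1 at 89891559, and 3 and 0 at 89891894. In steps of 250 bases the positive alignments numbered 23, 6, 13, 7, 2, 7 and 3, so the beginning of the stretch was the most densely covered.

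The 61 positive alignments began at 54 different bases and no base held more than 2 of them. The stretch was therefore not built from a few piles of identical reads. Its greatest depth was 9 positive reads and 1 negative read over a base. Per kilobase of its length the exon stretch held 35.4 positive and 0.581 negative alignments. The block after it was denser, with 127 and 137 per kilobase, with up to 3 alignments at a single base in either library and a greatest depth of 18 and 24 reads.

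The lengths at the locus can be set beside the gene model. From the first base of the exon stretch to the last base of the block after it there were 2046 bases, and exon 2 of Zfp352 has 2120. Upstream, the locus held 2 lone alignments, both in the positive library. One of them, at 89885566 to 89885637, began 4711 bases before the exon stretch, and the starts of exon 1 and exon 2 are 4763 bases apart in GRCm38. The other, at 89877386, began 12891 bases before it, further than the gene model reaches. Both tracks resolved fully into alignments without gaps, so reads across the junction of the exons are not among them.

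After the block, the remaining 27678 bases of the locus held 11 positive and 13 negative alignments, a ratio of 0.773 (0.313 to 1.87). They were scattered over 15 covered blocks of which 9 had positive and 7 had negative alignments, and 14 of these blocks ended within 7.02 kb of the start of the exon stretch. The densest of them, at 89895959 to 89896088, had 2 and 4. At this depth no difference between the libraries was detectable there.

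**Figure D2:**
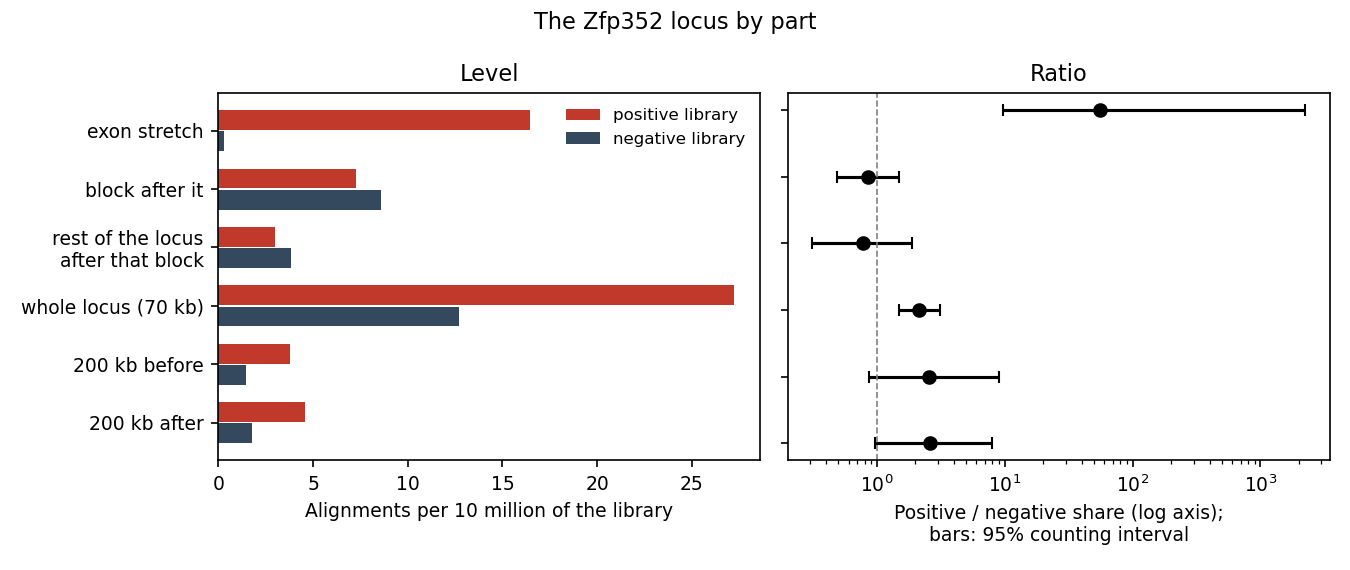
Alignments per 10000000 of each library (left, bars) and the ratio of the positive to the negative share (right, log axis, dots with 95% counting intervals) for parts of the locus and its flanks. The exon stretch stands at 16.5 against 0.296 per 10000000, and the intervals of the block after it (0.484 to 1.49) and of the rest of the locus include 1.

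The flanks were nearly empty. The 200 kb before the locus held 14 and 5 alignments, a ratio of 2.56 (0.870 to 9.07), and the 200 kb after it 17 and 6, a ratio of 2.59 (0.973 to 8.01), which was 4.61 (1.32 to 24.7) with each start position counted 1 time. Both flanks together held 31 and 11, a ratio of 2.57 (1.26 to 5.67), so the interval of the flanks also lay above 1 and overlapped that of the whole locus. Covered blocks took up 0.184% and 0.590% of the flanks, against 4.44% of the locus. The most covered block of the flanks, 80 bases at 89815441 to 89815520, had 11 positive alignments on 5 bases and 4 negative ones on 2. The other flank blocks with most alignments had 0 and 3 at 89934596, 3 and 0 at 90060653, 1 and 2 at 90083627, and 2 and 0 at 90052442. In the flank after the locus, 6 blocks between 90059712 and 90062987 together held 8 positive alignments and 0 negative ones. With 3 counts in place of 0 their ratio was 2.43, and the counting interval began at 1.56. These 6 blocks were picked after their values were seen, and none of the 21 flank blocks reached 20 alignments.

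**Figure D3:**
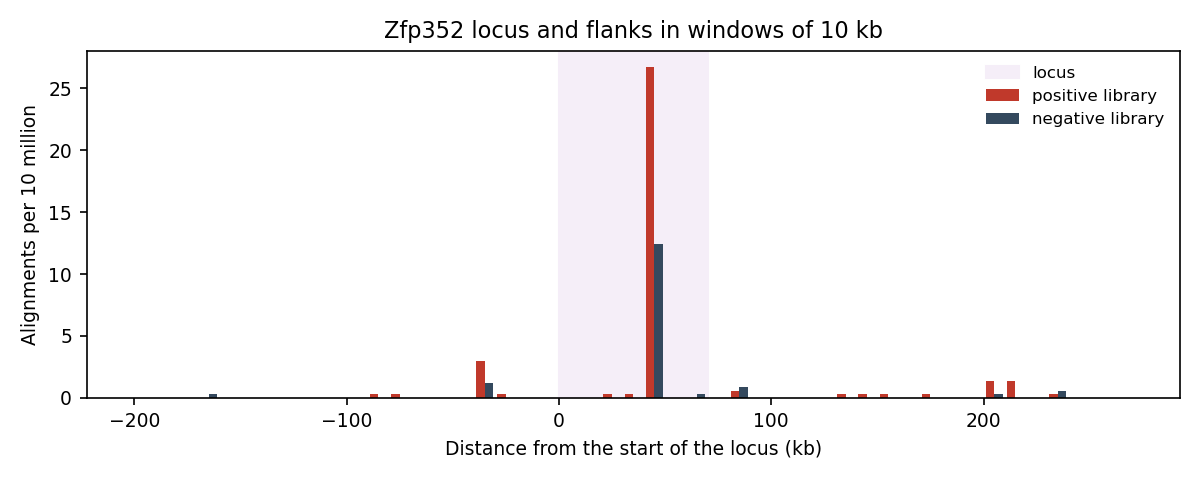
Alignments per 10000000 of each library in 10 kb windows (vertical axis) against the distance in kb from the start of the locus, which is shaded. A single window carries nearly all of the signal, 26.7 against 12.4 per 10000000, and 27 of the 40 flank windows have no alignment.

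Set against the whole genome, the locus looked different at different scales. Of its 7 windows of 10 kb, 1 had the 20 alignments needed for a comparison, with 99 and 42 and a ratio of 2.15 (1.49 to 3.17). That window was among those at least 2-fold higher with an interval above 1, as were 4.62% of the 48349 windows compared. It was not among the 1.69% at least 4-fold higher. In windows of 5 kb its ratio was 2.68 and in 50 kb 2.20, so none of these window sizes showed the 55.7 of the exon stretch.

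By covered block, 2 of the 23 blocks of the locus had at least 20 alignments. The first block of the exon stretch was at least 4-fold higher, as were 0.98% of the 103461 covered blocks of that size in the genome, and the block after the exon stretch was not. With blocks joined over gaps under 72 bases, the exon stretch became 1 stretch and was at least 4-fold higher, as were 1.07% of 90373 joined stretches. Of the 90373 stretches, 464 had a ratio at least as high as the exon stretch, with those without a negative alignment ranked as higher. Of these, 173 also had at least as many positive alignments.

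**Figure D4:**
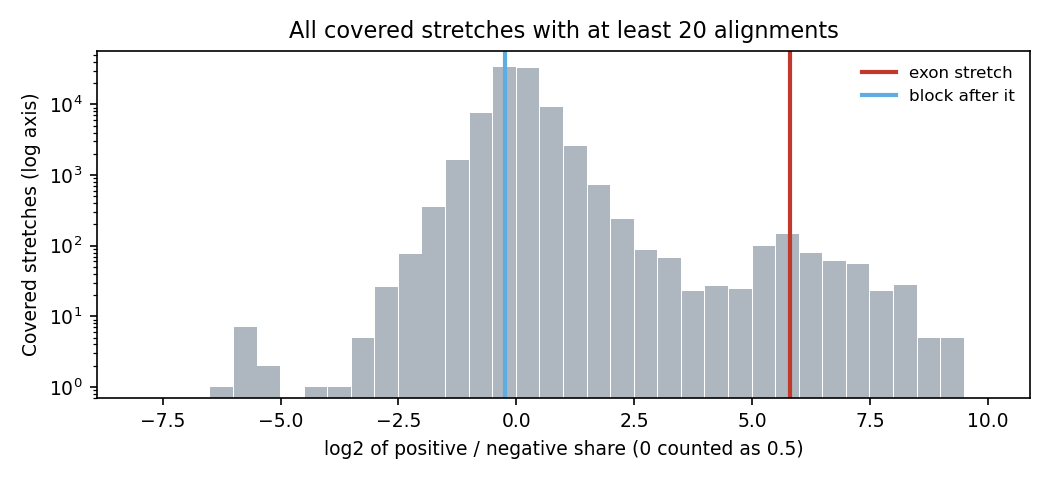
Number of joined covered stretches with at least 20 alignments (vertical log axis) by the log2 ratio of the positive to the negative share, with a count of 0 drawn as 0.5. The exon stretch, with a ratio of 55.7, lies in the small group at the right, and the block after it, with 0.850, lies in the main peak.

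In total alignments, the Zfp352 locus was small beside larger regions that differed between the libraries. The totals were not scaled to the length of a region, and alignments listed at several places were not left out. Among regions of joined 10 kb windows at least 4-fold higher, the one with most positive alignments on chromosome 7, at 11370001 to 11760000, held 3864 positive and 23.3 negative alignments per 10000000. The corresponding region of chromosome 3, at 93430001 to 94080000, held 1054 and 12.1. The exon stretch of Zfp352, which has 1721 bases, held 16.5 and 0.296. The interval of its ratio (9.63 to 2235) includes those of both regions, 165 (133 to 209) and 87.0 (64.0 to 121). Both regions were picked for their high ratio, so their ratios are a description.

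A read that matches several places may be listed at each of them, so the start counts of the locus were searched for elsewhere in the genome, in both orientations. The block after the exon stretch was found again on chromosome 1, at 183826586 to 183826797, in reverse. Of its 36 start positions, 35 had the same counts in both libraries there, and the next best place in the genome matched 14. Those 35 positions held 26 of the 27 positive and all 29 negative alignments of the block. On chromosome 1 the matching place lay inside a covered block of 1087 bases with 153 and 133 alignments, a ratio of 1.05 (0.827 to 1.34), and the 10 kb that follow it held 5329 and 5051.

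The exon stretch was found again in part, on chromosome 8 at 43166788 to 43168508, also in reverse. Of its 55 start positions 33 had equal counts there, and the next best place matched 20. The equal positions held 36 of its 61 positive alignments and its only negative one. A further 21 positions, with 24 positive and 0 negative alignments, were listed at the Zfp352 locus and not at the place on chromosome 8, and 1 position, with 1 positive alignment, was listed at both with different counts. In turn 9 positions, with 9 positive and 0 negative alignments, were listed on chromosome 8 and not at the locus. Counting the alignments that lie wholly inside it, the place on chromosome 8 held 47 and 1, a ratio of 42.9 (7.33 to 1730).

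Leaving out the positions with equal counts elsewhere, the exon stretch kept 25 positive alignments and 0 negative ones. With 3 counts in place of 0 its ratio was 7.61, and the lower interval bound was 5.74. The block after it kept 1 and 0. Of the 25 alignments kept by the exon stretch, 24 were listed at chromosome 4 and not at the matching place. The other 1 began at a position listed at both with different counts. The higher signal of the positive library in the exon stretch was thus also seen in alignments not listed at the matching place. The block whose counts were alike was, but for 1 alignment, listed on chromosome 1 as well. From which of the places a read listed at both came was not tested.

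The sequence of the Zfp352 transcript was compared with the annotated transcripts of 55340 other genes to see which share long stretches with it. Identical stretches of 36 bases were found in 3 genes: Zfp353-ps, Gm12633 and Enah. Zfp353-ps, a processed pseudogene, lies on the minus strand of chromosome 8 and Enah on the minus strand of chromosome 1, the chromosomes of the matching places, and Zfp352 is on the plus strand. Enah encodes a regulator of actin filament assembly. Gm12633, a processed pseudogene on the minus strand of chromosome 4, is the third, at 90359622 to 90361326 of GRCm38. Its place in mm9, inside or outside the flank after the locus, was not determined. Whether the matching places in mm9 are these genes was not tested, since no mm9 annotation was at hand.

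Zfp353-ps resembled the coding sequence of Zfp352 over 1647 bases, of which 95.1% were identical without a gap. Of the 1582 windows of 72 bases in the coding sequence, 558 (35.3%) had at most 2 mismatches to Zfp353-ps and 72 had none. With at most 3 mismatches there were 826 (52.2%). How many mismatches the alignment allowed was not given. Enah shared the noncoding end instead. There, 276 of 284 aligned bases were identical (97.2%), and 141 of 351 windows had at most 2 mismatches. Gm12633 was further off, with 84.7% identity over the coding sequence and at least 3 mismatches in every window of it.

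**Figure D5:**
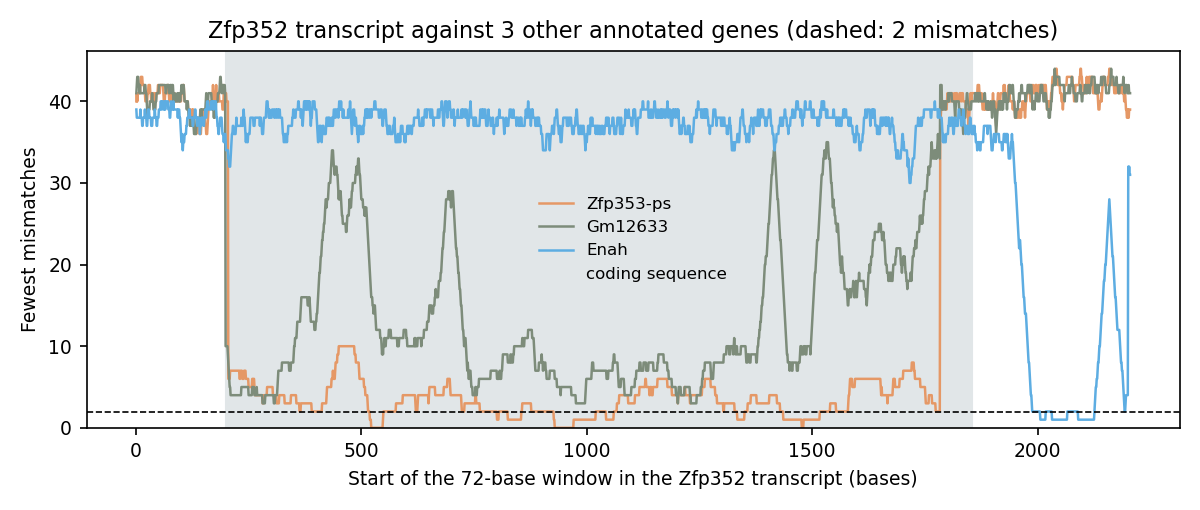
Fewest mismatches of each 72-base window of the Zfp352 transcript to the transcripts of Zfp353-ps, Gm12633 and Enah (vertical axis) against the start of the window in the transcript (bases); the coding sequence is shaded and the dashed line marks 2 mismatches. Over all but the first few windows of the coding sequence Zfp353-ps has at most 10 mismatches, and 35.3% of the coding windows have at most 2. Enah has at most 2 over part of the noncoding end.

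The longest stretch that Zfp352 and Zfp353-ps share without a difference has 113 bases, coding bases 731 to 843, and any alignment of 72 bases inside it matches both alike (GRCm38, chr4:90224355-90224467, plus strand, and chr8:42082273-42082385, minus strand).

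Zfp352 and Zfp353-ps, shared: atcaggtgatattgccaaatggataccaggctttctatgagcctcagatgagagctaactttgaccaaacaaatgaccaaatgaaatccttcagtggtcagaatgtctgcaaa

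Within the 1647 aligned bases, windows of 72 bases differ at up to 10 positions, and the first of those with 10, coding bases 252 to 323, is shown with the differences in capitals. Such a stretch is one in which an alignment can be told apart (GRCm38, chr4:90223876-90223947, plus strand, and chr8:42082793-42082864, minus strand).

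Zfp352: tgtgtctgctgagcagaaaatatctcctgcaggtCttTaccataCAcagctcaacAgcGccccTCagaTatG
Zfp353-ps: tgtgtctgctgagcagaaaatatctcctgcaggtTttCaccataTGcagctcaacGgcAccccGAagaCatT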

How the data were processed

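Messenger RNA of reporter-positive and reporter-negative ES cells was sequenced, 1 library each. The authors deposited 1 coverage track per library, whose signal counts the aligned reads at each base without scaling to depth. The submitters' processing notes name Bowtie and the build mm9. Alignment settings were not given in the sources used here. Each track came from a sorted BAM file, per the file headers.

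Coverage was decoded into ungapped alignments of 72 bases, which gave whole, non-negative start counts at every base of both tracks. The decoder and the size rule were tested on simulated data. Alignments were counted by start. Ratios of library shares carry exact conditional binomial (Clopper-Pearson) 95% intervals, for counting error only. Without molecular identifiers, reads need not be independent molecules, which the intervals leave out. Covered blocks and 10 kb windows were compared genome-wide from 20 alignments upward, and called higher at 2-fold or 4-fold with an interval above 1. A start pattern counted as recurring with at least 20 positions, 50% of them with equal counts in both libraries. The exon stretch is the most covered stretch of the locus once blocks are joined over gaps under 72 bases.

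The locus, lists and rules were chosen with earlier results of these data known, and the pattern search, the choice of Zfp353-ps, Gm12633 and Enah and the motifs after the values were seen. The blocks named are the 5 with most alignments in the locus and the 5 in the flanks, and others were named after their values were seen. Analyses used Python 3.11.15, numpy 2.4.6, scipy 1.17.1, pandas 2.3.3 and Biopython 1.88.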

Additional observations from a re-analysis of the deposited data

How the results depend on the processing

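Of 37 recomputed ratios of the locus, its parts and its flanks, 35 stayed within the counting interval and 2 did not. Several of the 37 could hardly move, so the 35 overstate the stability. Summed depth is 72 times the alignments, so that scaling returns the same ratio. The other scalings change all ratios by a common factor (the median ratio was 0.9939). The block of depth at least 5 held the same 27 and 29 alignments. The ratio of the whole locus lay between 2.14 and 2.74. The alternatives were scaling by summed depth, without mitochondrial alignments or by the median ratio, counting each start position 1 time, thinning, leaving out or down-weighting recurring positions (the weighting was chosen after the data were seen) and other block rules. The exon stretch went from 55.7 to 7.61 with recurring positions left out, where 3 counts stand in place of 0 and fewer alignments remain. With blocks joined over gaps under 72 bases the most covered block of the locus became the exon stretch, so its ratio went from 0.850 to 55.7. A different stretch was then measured, so this is not the same ratio recomputed. For the block after the exon stretch, no ratio was had with recurring positions left out. Recurring positions were searched for in these 2 stretches only, so this alternative was not run for the rest of the locus or the flanks, and in the whole locus it left out the positions of the 2 stretches.

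Genome-wide, 2232 windows were 2-fold or more higher, 817 reached 4-fold, 400 were 2-fold or more lower and 30 reached 4-fold lower. In the same order the counts were 1072, 447, 112 and 7 in 50 kb windows. From 50 alignments upward they were 934, 374, 147 and 0, and from 200 upward 183, 113, 12 and 0. The counts of lower windows were 660 and 47 in 5 kb windows and 139 and 8 with each position counted 1 time. Few alignments limit every value of the locus, and the 55.7 of the exon stretch rests on 1 negative alignment. No paired analysis was possible because a single library stands for either population, and no replicate could be left out.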

Other observations

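Among 23743 windows of 10 kb outside the locus and its flanks with at least as many positive alignments as the Zfp352 window and a negative alignment, 248 (1.04%) had a ratio at least as high as its 2.15. The 5 with the nearest ratio, over 2 libraries, were chromosome 2 from 75620001 (118 and 50 alignments), chromosome 13 from 51940001 (720 and 305), chromosome 14 from 76920001 (111 and 47), chromosome 1 from 182820001 (1043 and 444) and chromosome 10 from 25210001 (142 and 60). A shared ratio over 2 libraries describes the windows only.

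Around the place on chromosome 8 that shares start counts with the exon stretch, the 10 kb before it held 7 and 1 alignments and the 10 kb after it 1 and 0. That place thus stood alone among thinly covered sequence, whereas the place on chromosome 1 lay at the edge of densely covered sequence, with 14 and 16 alignments in the 10 kb before it and 5329 and 5051 in the 10 kb after it.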
